A study of Drosophila melanogaster with 12 samples.

Results

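The vacuolar proton ATPase is the rotary pump that acidifies lysosomes, endosomes and other compartments, and in some epithelia it works at the plasma membrane. It is built of a soluble V1 sector, which hydrolyses ATP, and a membrane V0 sector, through which protons pass. Its genes were found by name in RNA sequencing tables of Drosophila melanogaster larval carcass, the body wall of muscle and epidermis left after the internal guts are dissected away. Every row with a gene name that starts with Vha was taken, which gave 20 of 13650 rows in each of the 2 tables. Of the 20 rows, 9 encode V1 subunits, 10 encode V0 subunits and 1 (VhaM8.9) encodes an accessory protein.

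The 12 libraries came in 4 groups of 3, from late foraging third-instar larvae. The smox group had the genotype Smox(Smad2)F4/Y, a hemizygous, hence male, mutant for Smox, which encodes the Activin pathway's Smad. Its control was the strain w1118, for which no label states the sex. Larvae of both were fed yeast paste over apple juice plates. The baboACT group had the genotype tub-Gal80ts/+;MhcGal4/baboACT, in which a Myosin heavy chain driver expresses an activated form of the Activin receptor Baboon in muscle. Its control, called MhcGal4, was tub-Gal80ts/+;MhcGal4/+. Both of these carried the temperature-sensitive Gal4 inhibitor, were raised on vial food and were held at 30 °C for the last 12 h. One experiment asks which transcripts depend on Smox, and the other which respond to the active receptor. Whether the 3 libraries per group are separate animals is not stated, so q may measure technical spread alone.

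The authors deposited 1 FPKM per gene and group, a measure scaled by transcript length and library size, so no value has a spread over libraries and the read depth is unknown. A transcript is said to be higher, lower or called where its q, the p-value adjusted over the table, is under 0.05 in the authors' deposited table. A called gene printed without q had the lowest q of its experiment, which was 0.000152 for smox and 0.000217 for baboACT. Log2 ratios were computed from the group FPKM, mutant or expressing group over its control, among rows with a mean of at least 1 FPKM. Smox itself stood at 1.395 FPKM in smox and 23.9 FPKM in w1118. The receptor gene babo stood at 15.6 FPKM in baboACT and 13.2 FPKM in MhcGal4 (q = 0.00424 in the authors' deposited table). No source used here says whether transgene reads count toward it. Muscle and epidermis were both present: the myosin light chain gene Mlc1 was at 6861 FPKM in smox, 6814 in w1118, 6080 in baboACT and 8429 in MhcGal4, and the chitin synthase gene kkv at 143, 121, 108 and 95.1 FPKM in the same groups.

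In every eukaryote the V1 head is a ring of A and B subunits that surrounds a central shaft of D and F. Peripheral stalks of C, E and G hold the head still against the membrane sector, and H sits at the interface and silences V1 that has come free. In the membrane, a ring of proteolipids (c and c″) turns with subunit d, while subunit a carries the proton path and, through its isoforms, determines where the pump goes. Cells can take V1 off V0 to stop pumping, and in flies as in mammals the pump also takes part in nutrient sensing by the TOR kinase at the lysosome.

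V-ATPase transcripts were lower in smox carcass than in w1118 carcass for nearly every subunit, with the ring proteolipid Vha16 the furthest down. They were higher with activated Baboon in muscle for most subunits. Their summed FPKM fell by 31.2% in smox and was 24.2% higher in baboACT. The sum over all rows was nearly equal in smox (964492) and w1118 (962767), but was also higher in baboACT (812782) than in MhcGal4 (755064). These sums take in listed zeros that may be failed estimates. The muscle gene Mlc2 was listed at 10733 FPKM in baboACT and 0 in MhcGal4. Mhc was listed at 3350 FPKM in baboACT and 0 in MhcGal4, and at 0 in smox and 2892 FPKM in w1118. Of the 20 rows, 17 passed the 1 FPKM minimum in each table. In smox, 16 of these 17 were lower and 0 were higher, where 39.8% of all 7977 rows tested were lower and 58.1% were called in either direction. Among the 2644 rows at least as abundant as the least abundant of the 17, 44.4% were lower. With activated Baboon, 14 of 17 were higher and 0 were lower, where 29.1% of all 8018 rows tested were higher and 43.8% were called in either direction. Among the 2156 rows at least as abundant as the least abundant of the 17, 40.4% were higher. In both comparisons the members' share lies above these backgrounds.

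The median log2 ratio of the 17 rows was -0.47 in smox, against -0.14 for all rows tested, and 0.30 with activated Baboon, against 0.08 for all rows tested. Summed over the 20 rows, FPKM came to 2429 in smox and 3532 in w1118, and to 2834 in baboACT and 2282 in MhcGal4. Changes of this size were common in these tables: 18.2% of all rows tested were at least as low in smox as Vha68-2, and 21.6% were at least as high with activated Baboon as Vha68-2. These are carcass averages, in which fewer cells of a type and less RNA per cell cannot be told apart.

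**Figure D1:**
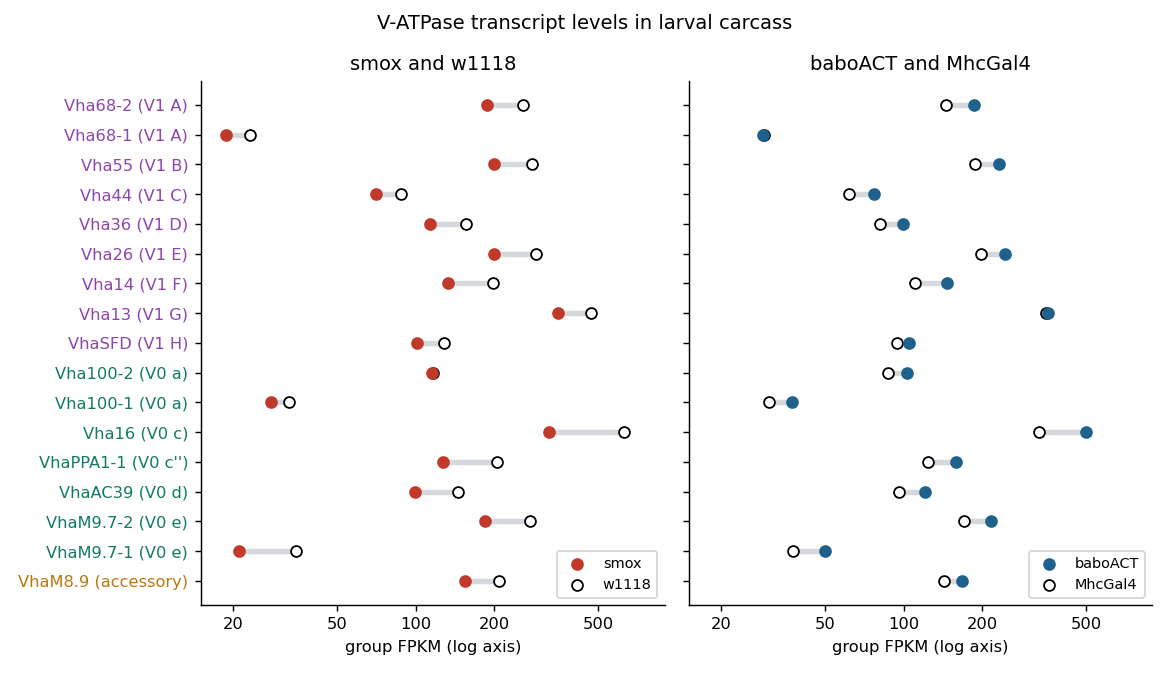
Group FPKM on a log axis for the 17 V-ATPase rows past the minimum, smox (red) and w1118 (open) on the left, baboACT (blue) and MhcGal4 (open) on the right, with V1 names in purple, V0 in green and the accessory gene in orange. The red points lie left of the open ones except at Vha100-2, where they coincide, and the blue points lie right of the open ones except at Vha68-1 and Vha13, where they nearly coincide.

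All 9 V1 rows were lower in smox, with log2 ratios between -0.57 and -0.30 and a median of -0.45. In the catalytic head, Vha68-2, the main gene for the ATP-hydrolysing A subunit, stood at 187 FPKM in smox and 258 FPKM in w1118 (log2 ratio -0.47). Vha55, which encodes the B subunit beside it, stood at 199 FPKM in smox and 278 FPKM in w1118 (-0.48). The main head genes thus had nearly equal log2 ratios. Of the rotor shaft, Vha36 (subunit D) was at 114 FPKM in smox and 156 FPKM in w1118 (-0.45), and Vha14 (subunit F) was at 133 FPKM in smox and 197 FPKM in w1118 (-0.57). Of the peripheral stalks, Vha26 (subunit E) was at 199.6 FPKM in smox and 289 FPKM in w1118 (-0.53). Vha13 (subunit G), the most abundant V1 transcript in all 4 groups, was at 352 FPKM in smox and 470.3 FPKM in w1118 (-0.42). Subunits C and H were among the least changed of V1, after Vha68-1: Vha44 (subunit C) stood at 70.5 FPKM in smox and 88.1 FPKM in w1118 (-0.32), and VhaSFD (subunit H) at 101 FPKM in smox and 128 FPKM in w1118 (-0.35).

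The V0 rows were more uneven in smox. Of the 7 that passed the minimum, 6 were lower, and their log2 ratios ran from -0.95 to -0.0044 with a median of -0.56. Vha16, on chromosome arm 2R between 2512747 and 2520633 (the authors' coordinates, for which no build is named), encodes the c proteolipid of the rotor ring and was the most abundant V-ATPase transcript in w1118. It stood at 325 FPKM in smox and 628 FPKM in w1118, a log2 ratio of -0.95 that 5.28% of all rows tested equalled or exceeded. The larger ring proteolipid, VhaPPA1-1, stood at 127 FPKM in smox and 205 FPKM in w1118 (-0.69). VhaAC39, which encodes the d subunit that couples ring and shaft, stood at 99.3 FPKM in smox and 146 FPKM in w1118 (-0.55). It is the 1 X-linked gene among the 17. The small e subunit has a pair of expressed genes: VhaM9.7-2 was at 185 FPKM in smox and 273 FPKM in w1118 (-0.56), and VhaM9.7-1 was at 21.0 FPKM in smox and 34.8 FPKM in w1118 (-0.73).

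The subunit a genes past the minimum were the least changed of the 17 rows in smox. Vha100-2, on 3R from 14216039 to 14230448, was at 115.9 FPKM in smox and 116.3 FPKM in w1118, and it was the 1 row of the 17 not called there (q = 0.96 in the authors' deposited table). Its locus overlaps the rows CG12333 and koko, and no source used here says how fragments of overlapping genes were divided. Of the 17 rows, 5 have such an overlap, the called Vha44 and Vha100-1 among them. Vha100-1, the paralog of Vha100-2, is known in flies for a role at synapses. It was at 27.8 FPKM in smox and 32.6 FPKM in w1118, a log2 ratio of -0.23 (q = 0.00234 in the authors' deposited table). The accessory gene VhaM8.9, named ATP6AP2 in RefSeq and related to the mammalian prorenin receptor, stood at 154 FPKM in smox and 209 FPKM in w1118 (-0.44).

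With activated Baboon, all 7 V0 rows past the minimum were higher, with log2 ratios between 0.25 and 0.61 and a median of 0.34. Vha16 was again the furthest changed and stood at 501 FPKM in baboACT and 329 FPKM in MhcGal4 (0.61). VhaPPA1-1 stood at 159 FPKM in baboACT and 124 FPKM in MhcGal4 (0.36). VhaAC39 was at 120.4 FPKM in baboACT and 96.5 FPKM in MhcGal4 (0.32, q = 0.000411 in the authors' deposited table). Ring and coupling subunits thus all rose here. Of the e subunit genes, VhaM9.7-2 was at 216 FPKM in baboACT and 171 FPKM in MhcGal4 (0.34), and VhaM9.7-1 was at 49.9 FPKM in baboACT and 37.8 FPKM in MhcGal4 (0.40). Vha100-2, which was not called in smox, was at 103.5 FPKM in baboACT and 87.3 FPKM in MhcGal4 (0.25, q = 0.019 in the authors' deposited table). Vha100-1 was at 37.3 FPKM in baboACT and 30.6 FPKM in MhcGal4 (0.28, q = 0.000411 in the authors' deposited table). Both isoforms of subunit a were therefore higher, by similar ratios.

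Of the 9 V1 rows, 6 were higher with activated Baboon, and the median log2 ratio was 0.30. Vha68-2 stood at 186 FPKM in baboACT and 146 FPKM in MhcGal4 (0.35). Vha55 stood at 232 FPKM in baboACT and 189 FPKM in MhcGal4 (0.30, q = 0.00871 in the authors' deposited table). Vha14 rose the furthest of V1 and stood at 147 FPKM in baboACT and 110.3 FPKM in MhcGal4 (0.41). Vha36 was at 99.6 FPKM in baboACT and 81.2 FPKM in MhcGal4 (0.29), and Vha26 was at 245 FPKM in baboACT and 199 FPKM in MhcGal4 (0.30), each with q = 0.000411 in the authors' deposited table. Vha44 was at 76.8 FPKM in baboACT and 61.7 FPKM in MhcGal4 (0.32, q = 0.0103 in the authors' deposited table). The accessory VhaM8.9 was at 167 FPKM in baboACT and 143 FPKM in MhcGal4 (0.22, q = 0.0201 in the authors' deposited table).

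The 3 rows not called with activated Baboon were all of V1, and all 3 were lower in smox. Vha13 stood at 358 FPKM in baboACT and 353 FPKM in MhcGal4 (0.019, q = 0.883 in the authors' deposited table). VhaSFD stood at 105 FPKM in baboACT and 94.3 FPKM in MhcGal4 (0.16, q = 0.292 in the authors' deposited table). Its locus in the tables overlaps 8 other rows, including the cytochrome c genes Cyt-c-p and Cyt-c-d. Vha68-1 stood at 28.9 FPKM in baboACT and 29.1 FPKM in MhcGal4 (-0.0080, q = 0.943 in the authors' deposited table).

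**Figure D2:**
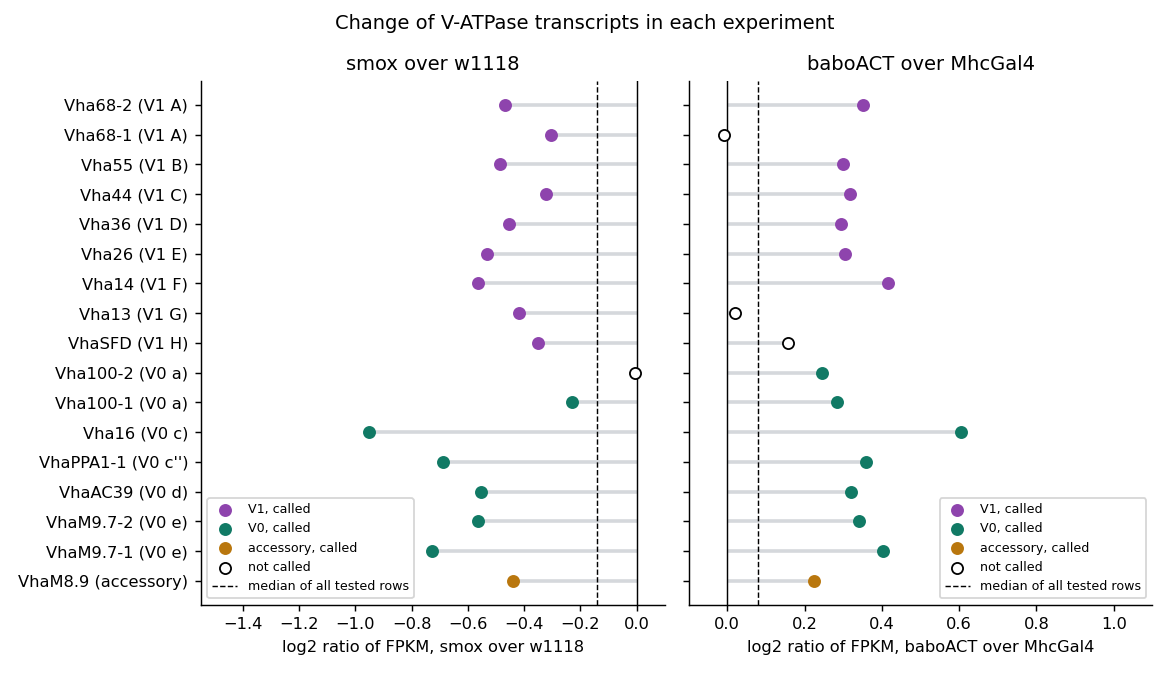
Log2 ratio of group FPKM for each of the 17 V-ATPase rows, smox over w1118 on the left and baboACT over MhcGal4 on the right; filled points were called in the authors' table, open points were not, and the dashed line is the median of all rows tested. Vha16 lies furthest from 0 in both panels, and the open points are Vha100-2 on the left and Vha68-1, Vha13 and VhaSFD on the right.

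The V1 and V0 sectors moved in the same direction in each experiment, and their single-gene values overlapped. In smox the V1 median was 0.11 above the V0 median on the log2 scale, and 5 of 7 V0 rows lay below the V1 median. With activated Baboon the V1 median was 0.039 below the V0 median, and 5 of 7 V0 rows lay above the V1 median. In sums over all rows of a sector, V1 held 1374 FPKM in smox and 1888 FPKM in w1118, and V0 held 901 FPKM in smox and 1436 FPKM in w1118. V1 held 1480 FPKM in baboACT and 1263 FPKM in MhcGal4, and V0 held 1187 FPKM in baboACT and 876 FPKM in MhcGal4. No test of V1 against V0 was run, since the tables give no spread over libraries. Vha16 alone carries much of the V0 sums, at 325 FPKM in smox and 628 in w1118, and 501 in baboACT and 329 in MhcGal4. Without it, the rows past the minimum of all sectors summed to 2104 FPKM in smox and 2905 FPKM in w1118, and to 2333 FPKM in baboACT and 1953 FPKM in MhcGal4.

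Set side by side, the experiments moved the subunits in opposite directions, and they share no libraries. Of the 17 rows, 13 were lower in smox and higher with activated Baboon, 3 were lower in smox and not called with activated Baboon, and 1 was higher with activated Baboon and not called in smox. Among all 7768 rows past the minimum in both tables, 19.4% were lower in smox and higher with activated Baboon, and among the 2093 at least as abundant as the least abundant V-ATPase row, 28.5% were. Members that were lower in smox by more tended to be higher with activated Baboon by more. Over the 17 rows, Pearson's r between the log2 ratios was -0.65 and Spearman's rho was -0.84, and without Vha16 they were -0.48 and -0.80. Over all 7768 rows they were -0.23 and -0.37. The points are genes that share gene models and counting, so these coefficients describe the rows and carry no test.

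**Figure D3:**
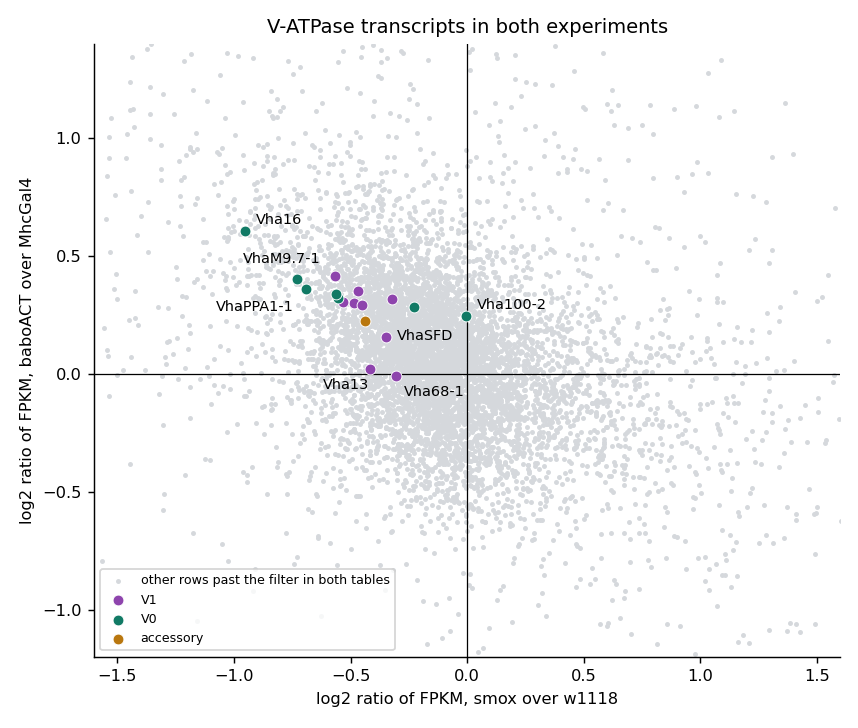
Log2 ratio of FPKM in smox over w1118 (horizontal) against baboACT over MhcGal4 (vertical) for the 17 V-ATPase rows, colored by sector, and for all other rows past the minimum in both tables (gray; rows beyond the axes are not drawn). The V-ATPase rows run from Vha16 at the upper left (-0.95 and 0.61) to Vha68-1 near the horizontal axis, with Vha100-2 on the vertical axis.

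Where a subunit had several genes, 1 gene carried most of the transcript in every group. FPKM is scaled by length, so levels of paralogs were compared within a group. Of the A subunit genes, which lie near each other on 2L (Vha68-2 from 12974322 to 12978614, Vha68-1 from 13000766 to 13004142), Vha68-2 held 90.9% of their summed FPKM in smox and 91.8% in w1118, and 86.6% in baboACT and 83.4% in MhcGal4. Vha68-1 stood at 18.7 FPKM in smox and 23.1 FPKM in w1118 (log2 ratio -0.30). It was lower in smox as Vha68-2 was, and was not called with activated Baboon, where Vha68-2 was higher. The log2 ratio of Vha68-2 lay 0.16 below that of Vha68-1 in smox and 0.36 above it with activated Baboon.

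Of the a subunit genes, Vha100-2 held 80.6% of the FPKM of this gene and Vha100-1 in smox and 78.1% in w1118, and 73.5% in baboACT and 74.0% in MhcGal4. The e subunit gene VhaM9.7-2 held 89.8% of the FPKM of the pair in smox and 88.7% in w1118, and 81.2% in baboACT and 81.9% in MhcGal4. The name VhaM9.7-1 is a synonym of a pair of current genes, one of which (VhaM9.7-a) has its own row as CG1268, so the row was read as VhaM9.7-c. Its locus spans other rows, tipE and its relatives among them. No difference between paralogs was tested, since each gene has a single value per group.

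The 3 remaining members were near or at 0. Vha16-2 and Vha16-3, neighbouring c proteolipid genes on 3L, were listed at 0 in all 4 groups. Vha100-3 was listed at 0.0133 FPKM in smox and 0.0136 FPKM in w1118, and at 0 in baboACT and MhcGal4. An FPKM of 0 can be a failed estimate in these tables, in which the abundant muscle gene Mhc is listed at 0 in smox and MhcGal4. No source used here says how reads shared by similar copies were counted.

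A further 14 rows are listed under CG names and have a current Vha symbol in RefSeq. They are not members by the naming rule and were looked at for their subunits. Of these, 9 stayed under 1 FPKM in all 4 groups, with 0.161 FPKM the highest value among them. They include a further A subunit gene (Vha68-3, listed as CG5075), Vha14-2 (CG1076), VhaPPA1-2 (CG7026), VhaAC39-2 (CG4624) and both Vha100-4 (CG7678) and Vha100-5 (CG12602).

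CG8029, VhaAC45 in RefSeq, encodes the accessory subunit Ac45 of V0 and was as abundant as the core subunits. It stood at 149.9 FPKM in smox and 230.2 FPKM in w1118 (log2 ratio -0.62), and at 194 FPKM in baboACT and 146 FPKM in MhcGal4 (0.41). It was called in both experiments, in the directions of the other subunits. CG8310, Vha36-3 in RefSeq and X-linked, is another D subunit gene. It was lower in smox, at 35.7 FPKM against 42.9 FPKM in w1118 (-0.27), and was not called with activated Baboon, at 38.04 FPKM against 40.9 FPKM in MhcGal4 (-0.10, q = 0.354 in the authors' deposited table). Its paralog Vha36 held 76.1% of D subunit FPKM in smox and 78.4% in w1118, and 72.4% in baboACT and 66.5% in MhcGal4. As with the A subunit, it was the minor gene that was not called with activated Baboon. For subunits a and e the minor genes, Vha100-1 (0.28) and VhaM9.7-1 (0.40), were called higher there.

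**Figure D4:**
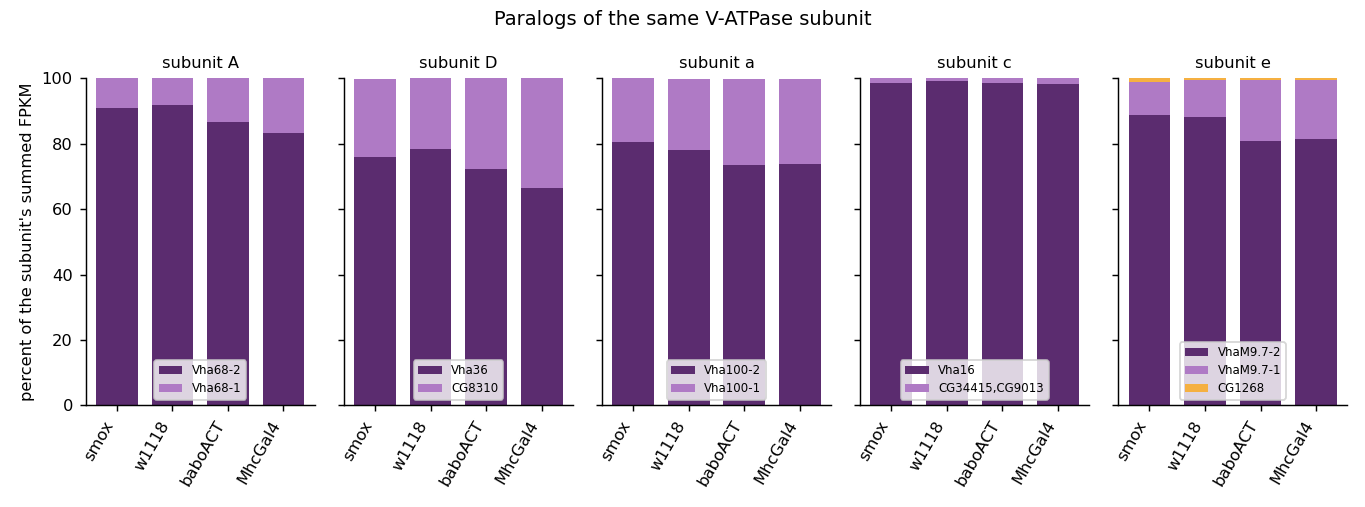
Percent of each subunit's summed FPKM held by each of its genes in smox, w1118, baboACT and MhcGal4, rows with CG names included (genes under 0.3% in every group are not drawn). The darkest gene holds at least 66.5% in every bar, and Vha16 holds at least 98.2% of subunit c.

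The other rows with a current Vha symbol were scarce. CG1268 (VhaM9.7-a) stood at 1.99 FPKM in smox and 1.37 FPKM in w1118 (q = 0.409 in the authors' deposited table), and under 1 FPKM in baboACT and MhcGal4. CG31030 (VhaAC45RP) was at 1.91 FPKM in smox and 2.21 FPKM in w1118, and at 1.71 FPKM in baboACT and 2.24 FPKM in MhcGal4 (q = 0.362 and 0.112 in the authors' deposited tables). The row CG34415,CG9013, in which Vha16-4 cannot be told apart from an overlapping gene, was lower in smox, at 4.48 FPKM against 5.63 FPKM in w1118 (-0.33, q = 0.00429 in the authors' deposited table). That row was not called with activated Baboon, at 6.53 FPKM against 6.02 FPKM in MhcGal4 (0.12, q = 0.47 in the authors' deposited table).

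Genes that regulate the pump or share its compartments were read as lists. Mitf encodes the fly relative of mammalian TFEB and is known in flies to switch on V-ATPase and lysosomal genes. It stood at 28.7 FPKM in smox and 34.8 FPKM in w1118 (log2 ratio -0.28), and at 45.0 FPKM in baboACT and 33.6 FPKM in MhcGal4 (0.42), and was called in both. Rbcn-3A and Rbcn-3B encode the rabconnectins, which help V1 and V0 come together. Rbcn-3A was at 11.2 FPKM in smox and 11.3 FPKM in w1118 and at 15.3 FPKM in baboACT and 13.4 FPKM in MhcGal4 (q = 0.853 and 0.0572 in the authors' deposited tables). Rbcn-3B was at 6.86 FPKM in smox and 7.15 FPKM in w1118 and at 10.6 FPKM in baboACT and 9.93 FPKM in MhcGal4 (q = 0.686 and 0.66 in the authors' deposited tables). Neither rabconnectin was called in either experiment. The list of regulators also holds subunit genes under CG names. Of its 6 rows past the minimum, 3 were lower and 0 higher in smox (median -0.24), namely Mitf and the subunit genes CG8029 and CG8310. With activated Baboon 2 were higher and 0 lower (0.14), namely Mitf and CG8029. Mitf was thus the 1 regulator called in this list.

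These counts are read beside all rows tested, of which 39.8% were lower in smox (median log2 ratio -0.14) and 29.1% higher with activated Baboon (0.08). Of 21 lysosomal genes past the minimum, 11 were lower and 2 higher in smox (median log2 ratio -0.17, close to that of all rows), and 14 were higher and 3 lower with activated Baboon (0.36). Among the enzymes, Gal (beta-galactosidase) stood at 13.9 FPKM in smox and 31.6 FPKM in w1118, and at 14.5 FPKM in baboACT and 5.67 FPKM in MhcGal4. Ect3, a related enzyme gene, stood at 2.14 FPKM in smox and 5.83 FPKM in w1118, and at 2.91 FPKM in baboACT and 1.23 FPKM in MhcGal4. Lerp, which encodes a receptor for lysosomal enzymes, was lower with activated Baboon, at 5.73 FPKM against 12.5 FPKM in MhcGal4, and was not called in smox (q = 0.242 in the authors' deposited table). CG3305, Lamp1 in RefSeq and a structural protein of the lysosomal membrane, stood at 179 FPKM in smox and 245 FPKM in w1118, and at 286 FPKM in baboACT and 232 FPKM in MhcGal4 (q = 0.000599 in the authors' deposited table).

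Of 22 endosome and fusion genes, 13 were lower and 0 higher in smox (median -0.22), and 11 were higher and 0 lower with activated Baboon (0.31). Stam and Hrs encode the partners that sort ubiquitinated cargo on endosomes. Stam stood at 16.5 FPKM in smox and 23.9 FPKM in w1118, and at 32.3 FPKM in baboACT and 17.4 FPKM in MhcGal4. Hrs stood at 13.7 FPKM in smox and 15.1 FPKM in w1118 (q = 0.0236 in the authors' deposited table), and at 22.4 FPKM in baboACT and 12.6 FPKM in MhcGal4. Rab7, the small GTPase of late endosomes, stood at 116.7 FPKM in smox and 166 FPKM in w1118, and at 169 FPKM in baboACT and 124 FPKM in MhcGal4. CG32350, Vps11 in RefSeq and a subunit of the tethering complex that docks vesicles at lysosomes, stood at 6.43 FPKM in smox and 9.51 FPKM in w1118, and at 11.6 FPKM in baboACT and 8.17 FPKM in MhcGal4. Of 11 genes of nutrient sensing at the lysosome, Mitf again included, 5 were lower and 0 higher in smox, and 5 were higher and 1 lower with activated Baboon (median 0.21). Their smox share is near the 39.8% of all rows that were lower, and their median (-0.14) is that of all rows. The 1 that was lower with activated Baboon was path, an amino acid transporter gene, at 99.5 FPKM against 143 FPKM in MhcGal4. Read beside these medians, both V-ATPase sectors lay lower in smox (-0.45 and -0.56). With activated Baboon the V0 median (0.34) lay between those of the endosomal and lysosomal lists, and the V1 median (0.30) lay just below both.

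**Figure D5:**
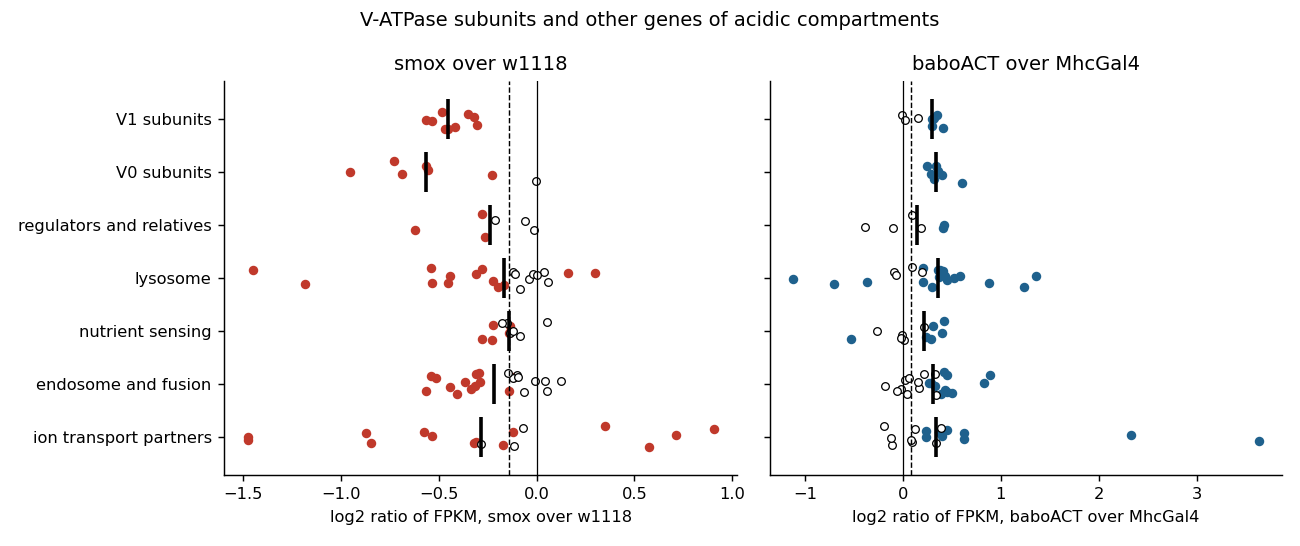
Log2 ratio of FPKM in smox over w1118 (left) and baboACT over MhcGal4 (right) for V1 and V0 subunits and 5 lists of related genes; filled points were called in the authors' table, open points were not, bars are list medians and the dashed line is the median of all rows tested. The V1 and V0 medians (-0.45 and -0.56) are the lowest of the sets on the left. On the right the lysosome (0.36), ion transport (0.34) and endosome (0.31) medians lie beside those of V1 (0.30) and V0 (0.34).

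Markers of tissues that could be left in a carcass also differed between groups. Their counts are read beside all rows tested. Of these, 1466 of 7977 were higher and 3172 lower in smox, and 2330 of 8018 were higher and 1182 lower with activated Baboon. The pump is abundant in gut, Malpighian tubules and secretory glands as textbook background. Salivary gland genes moved with the V-ATPase rows: they summed to 33.8 FPKM in smox and 502 FPKM in w1118, with 6 of 7 lower, and to 2319 FPKM in baboACT and 79.5 FPKM in MhcGal4, with 8 of 10 higher. Midgut genes summed to 56.2 FPKM in smox and 446 FPKM in w1118, with 6 of 8 lower, and to 134 FPKM in baboACT and 397 FPKM in MhcGal4, with 4 of 9 lower and 0 higher, so they moved against the V-ATPase rows in the second experiment. Of the Malpighian tubule list, 5 of 6 were higher in smox, and its defining gene Uro was at 0.119 FPKM in smox and 0.208 FPKM in w1118, and at 0.347 FPKM in baboACT and 0.203 FPKM in MhcGal4. With activated Baboon 2 of 6 of this list were higher and 2 lower. That list summed to 311 FPKM in smox and 240.3 FPKM in w1118, and to 188 FPKM in baboACT and 218 FPKM in MhcGal4. Most of each sum was 1 row, CG4019, at 268 FPKM in smox and 206 FPKM in w1118, and at 143 FPKM in baboACT and 177 FPKM in MhcGal4 (q = 0.000953 in the authors' deposited table). The part of these tissues in the V-ATPase values was not tested.

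Counts of the remaining lists are read beside the same background. In smox 1466 of all 7977 rows tested were higher and 3172 lower. With activated Baboon 2330 of all 8018 were higher and 1182 lower. Lists of a few rows cannot be told from it closely. The fat body list was mixed: 5 of 8 were higher and 3 lower in smox, and 1 of 8 was higher and 4 lower with activated Baboon. Its sums were 1969 FPKM in smox and 972 FPKM in w1118, and 795 FPKM in baboACT and 1467 FPKM in MhcGal4. Lsp2, a larval serum protein gene, moved against the V-ATPase rows in both experiments (log2 ratios 1.47 and -1.56), and Fbp1, a fat body protein gene, moved with them in both (-1.10 and 1.47). Of 9 hemocyte genes, 6 were lower, as most V-ATPase rows were, and 3 higher in smox (median -0.22), and 4 were lower and 2 higher with activated Baboon (-0.17). They summed to 434 FPKM in smox and 426 FPKM in w1118, and to 210.4 FPKM in baboACT and 276 FPKM in MhcGal4. Testis genes summed to 55.5 FPKM in smox and 62.4 FPKM in w1118, and to 62.1 FPKM in baboACT and 75.6 FPKM in MhcGal4, mostly from the row janA,janB. Of 4 testis rows past the minimum, 1 was higher and 1 lower in smox, and 0 were higher and 1 lower with activated Baboon. The part of these cell types in the V-ATPase values was not tested either. Of the muscle list, 5 of 11 were higher and 1 lower in smox, and 6 of 10 were lower and 0 higher with activated Baboon. Epidermal genes were higher in 4 of 7 cases and lower in 2 in smox, and higher in 3 of 7 and lower in 0 with activated Baboon. Tracheal genes were higher in 2 of 5 cases and lower in 1 in smox, and higher in 1 of 5 and lower in 1 with activated Baboon. Nervous system genes summed to 7.88 FPKM in smox and 6.44 FPKM in w1118, and to 6.28 FPKM in baboACT and 7.63 FPKM in MhcGal4, with 0 called in either.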

How the data were processed

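The 2 tables used, 1 per experiment, had 13650 rows each and 0 columns of single libraries. Per the submitters' processing notes, Cufflinks and Cuffdiff were used; their versions and the aligner, annotation, build and strand setting were not given in the sources read. Per the file headers, the authors deposited 1 FPKM per group, a q-value and p-value (lowest p 5e-05), and a test statistic, which is a score. Fold changes were recomputed here as log2 ratios, without a pseudocount, with pandas 2.3.3 in Python 3.11.15. Rows counted as tested were those the authors had tested, above 0 in both groups, averaging 1 FPKM or more, under a gene name that occurs once. Group values have no spread, so no model was fitted and calls rest on the authors' q. The table starts count from 0, and 1 was added. Subunit roles were assigned by name. The 15 lists of other genes and markers (233 of 245 names had a row, some found through synonyms in RefSeq, which was used for names only) and the members were chosen with earlier results of these data known. All members are named. From each list at most 4 genes are named, except the list of regulators, whose rabconnectins and some subunit genes are also described. Genes named were called with a large absolute log2 ratio in either experiment, define the list or carry most of its sum. Log2 ratios and scaling were tested on simulated data. No sequence is shown.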

Additional observations from a re-analysis of the deposited data

How the results depend on the processing

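No paired analysis was possible because the tables hold group values only, and for the same reason no library could be left out in turn. With an absolute log2 ratio of at least 0.5 added to the call, 7 of 17 V-ATPase rows were lower in smox and 1 was higher with activated Baboon. In smox 14.3% of all rows tested, called or not, were at least as low as Vha26 (-0.53), the least changed of the 7. With activated Baboon 9.94% were at least as high as Vha16 (0.61), and 1 of 17 is not above that share. At q below 0.01, 16 and 11 of the 17 were called. Shares of all rows under these stricter calls were not computed. Setting the median of all rows to 0 gave -0.31 for V1 and -0.42 for V0 in smox. Scaling both groups to an equal FPKM sum gave 0.19 for V1 and 0.23 for V0 with activated Baboon, and quantile normalization gave 0.12 and 0.16. The equal sum rests on totals in which Mlc2 and Mhc are listed at 0 in MhcGal4. The cause was not tested. The 36 other recomputed counts and medians stayed within 1.5 times or 0.1 of the reported value. Single genes shifted too. All 17 rows moved by more than 0.1 with activated Baboon under equal sums and under quantile normalization, and in smox with the median set to 0. The called rows of baboACT, reported from 0.22 (VhaM8.9) to 0.61 (Vha16), ran from 0.052 (Vha100-2) to 0.49 (Vha16) after quantile normalization. No called member changed sign under these scalings or with a pseudocount of 1, but q was not recomputed under any of them. No other filter on FPKM changed the counts. Rows with CG names, added after the data were seen, brought the counts to 19 and 15, of more rows. Of these added rows, 3 of 5 past the minimum were lower in smox and 1 of 4 was higher with activated Baboon. Both are smaller shares than among the 17, where 39.8% and 29.1% of all rows tested were so called. The depth behind each value is unknown, so no counting error could be given.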

Other observations

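Other ion transport genes, which supply or use the gradients a proton pump builds, were listed with the V-ATPase genes. Of 17, 10 were lower and 4 higher in smox (median log2 ratio -0.29), and 9 were higher and 0 lower with activated Baboon (0.34). Among all rows tested, 39.8% were lower and 58.1% called in smox, and 29.1% were higher and 43.8% called with activated Baboon. The furthest changed were Nha1, a sodium-proton antiporter gene, and CAH2, a carbonic anhydrase gene. Nha1 stood at 8.24 FPKM in smox and 22.9 FPKM in w1118 (-1.47), and at 56.4 FPKM in baboACT and 4.53 FPKM in MhcGal4 (3.64). CAH2 stood at 11.3 FPKM in smox and 31.4 FPKM in w1118 (-1.48), and at 51.0 FPKM in baboACT and 10.1 FPKM in MhcGal4 (2.33). CAH1, another carbonic anhydrase gene, stood at 55.7 FPKM in smox and 102 FPKM in w1118 (-0.87), and was not called with activated Baboon, at 44.99 FPKM against 34.4 FPKM in MhcGal4 (0.39, q = 0.0706 in the authors' deposited table). Nha2 went the other way in smox, at 14.6 FPKM against 7.80 FPKM in w1118 (0.90).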
